A study of Mus musculus with 24 samples.

Results

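The descending colon of germ-free mice was compared with that of conventional mice. Germ-free mice are raised without any microorganism, and conventional mice carry a gut microbiota. The comparison took the 3 arrays titled as germ-free descending colon against the 3 titled as conventional descending colon, 6 of the 24 arrays of the series. All 12422 probe sets that are not hybridization controls were members, of 12488 on the array, and 9033 passed a filter on low values. The other 18 arrays hold corpus of the stomach, jejunum and rectum from both kinds of mice, 3 arrays for each of the 8 groups. Each array measured total RNA of whole-thickness gut, so epithelium, immune cells, muscle and nerve were mixed. The colon piece is the stretch just above the rectum. The labels give no strain, sex or age. They also leave it unsaid whether the arrays of a group come from separate animals, and the p-values cover array-to-array spread, which may be technical.

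The colon is the most densely colonised part of the mouse gut. Microbes there feed the epithelium with short-chain fatty acids and drive the build-up of plasma cells that make IgA. That antibody is joined into dimers by the J chain and carried across the epithelium by the polymeric immunoglobulin receptor Pigr. Goblet cells add mucus, trefoil factor and lectins, and absorptive colonocytes take up salt and water. In germ-free mice the gut is known for few IgA plasma cells and small lymphoid follicles. RNA from whole tissue cannot tell fewer cells of a type from less RNA in each cell.

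Markers were checked first, because 1 germ-free array stood apart. Hoxb13, a homeobox gene of the hindgut, had a signal intensity of 112, 1082 and 1375 on germ-free arrays 1, 2 and 3, against 1728, 1478 and 1543 on the conventional arrays. Germ-free array 1 was the lowest, close to the 30.4 to 109 seen in jejunum, where conventional jejunum 3 is left out. Germ-free arrays 2 and 3 were also below every conventional array, by less. Tgm3, a transglutaminase, read 70.2, 826 and 1014 on germ-free arrays and 1361, 1379.9 and 788 on conventional arrays. Ly6g gave 62, 836 and 1023 in germ-free colon and 1298, 1009.5 and 990.3 in conventional colon, and the water channel Aqp8 233, 1477 and 1159.8 in germ-free and 1425, 1509 and 916 in conventional colon. On all of these, germ-free array 1 lay below the other 5. Tgm3 and Ly6g were picked for that gap, from the ranking given below. Hoxb13, and Fabp2 in the next paragraph, were known beforehand to set this array apart, so none of these 4 is a separate check. Car1, the carbonic anhydrase of colonocytes, was instead highest on that array, at 6818, 3124 and 1861 on germ-free arrays against 3974, 3834 and 2682 on conventional arrays. Summed over the 19 tested probe sets of the colonocyte list, the signal was also highest there, at 45664 against 31214 to 38352 on the other 5.

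Some genes of absorptive small intestinal cells were highest on the same array. Fabp2, the intestinal fatty acid binding protein, measured 4005, 1182 and 894 in germ-free colon and 243, 798 and 111 in conventional colon. Enpep, a brush border peptidase, measured 902, 224 and 175 in germ-free and 43.3, 55.8 and 70.6 in conventional colon, and the bile acid transporter subunit Slc51a 1012, 131 and 95.5 in germ-free against 37.3, 52 and 27.6 in conventional colon. A second Enpep probe set was lowest on germ-free array 1, with 192, 329.5 and 482 in germ-free and 315, 242 and 271 in conventional colon. Slc2a5 and Slc7a9, given below, were also no higher on that array than on the other germ-free ones. The summed signal of the 35 tested enterocyte probe sets was highest on germ-free array 1, at 11273 against 3260.5 to 6110 on the others. Apoa1, at 337, and a Mep1b probe set, at 1105, were also highest there. Some defining jejunal genes, given next, were low on germ-free array 1 as on the others. The lipoprotein gene Apoa4 had 43.5, 53.2 and 41.4 on germ-free arrays and 26.7, 23.2 and 11.3 on conventional arrays. A Fabp1 probe set stayed between 1.5 and 4.0 on all 6 arrays. Another, which did not pass the filter, gave 19.5, 50.8 and 15.3 in germ-free and 14.3, 15.1 and 4.4 in conventional colon. The gastric proton pump Atp4a lay between 115 and 203.

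Ranked by its gap to the nearest of the other 5 colon arrays, germ-free array 1 departed upward for B4galnt2, Ces1g, Slc51a, Car8, Cck, Mmp7, Cyp2d26, Cpn1 and Cyp4b1. It departed downward for Ly6g, Tgm3, Hoxb13, Sycn, Slpi, Tnni1, Ctse, an Ighv14-2 probe set and Eno3. The largest upward gap, for the glycosyltransferase B4galnt2, was 11.8-fold, with 1301, 110.5 and 83.5 on germ-free arrays and 39.1, 84.5 and 49.2 on conventional arrays. Jejunal arrays other than conventional 3 held 1420 to 2197 of this probe set. The largest downward gap, for Ly6g, was 13.5-fold. The array closest to germ-free array 1 in the series was germ-free rectum 1, with a Pearson r of 0.954. Counts and list medians are therefore given with and without germ-free array 1.

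**Figure D1:**
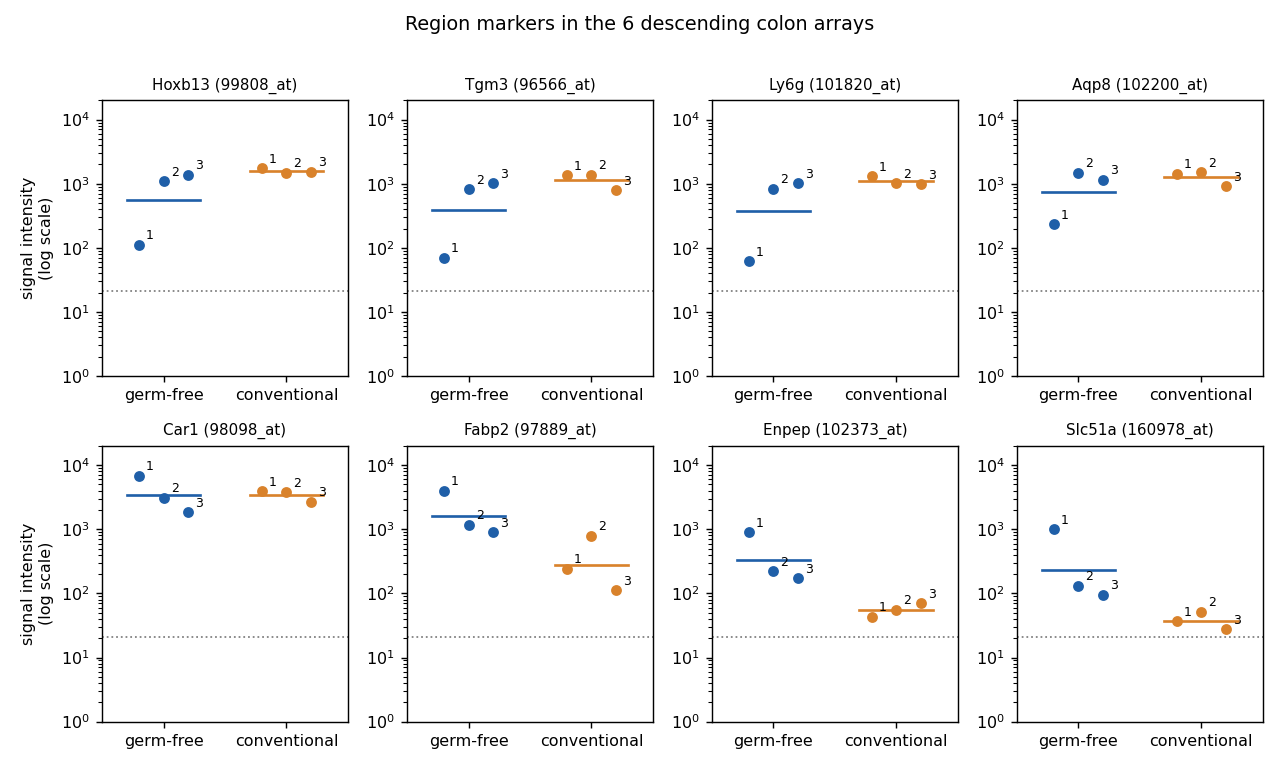
Signal intensity (log axis) of 8 region markers on the 3 germ-free (left, blue) and 3 conventional (right, orange) descending colon arrays, each point an array with its number, bars the mean of floored log2 values, the dotted line the floor of 21.2. Germ-free array 1 is low for Hoxb13, Tgm3, Ly6g and Aqp8 and high for Car1, Fabp2, Enpep and Slc51a. Tgm3 and Ly6g were picked for that gap, and Hoxb13 and Fabp2 were known beforehand to set this array apart.

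The other arrays had traits of their own. The median signal was 79.3, 93.8 and 103.5 on germ-free arrays, against 78.9 to 83.1 on conventional arrays. Of the probe sets, 28.1%, 21.3% and 17.6% lay at or under the floor of 21.2 on germ-free arrays, and 25.6% to 26.3% on conventional ones. Pancreatic transcripts were abundant on germ-free array 3 and conventional array 2, with trypsin gene Prss2 at 4.3, 785 and 3255 on germ-free and 11.5, 2692 and 227 on conventional arrays. Conventional array 2 alone had high intelectin Itln1, at 5052, and conventional array 3 alone high Cd52, at 6846, and Acta1, at 1094. Outside the colon, conventional jejunum 3, conventional rectum 1 and germ-free corpus 3 carried markers of another region than their labels. Germ-free corpus 3 was nearly a copy of germ-free descending colon 3. Their probe sets differed by a median of 0.09 on the log2 scale, the least of 276 pairs, with 0.18 for the next pair and 0.27 to 0.43 between replicates within a colon group. It was not counted as colon, and counts of calls are also given without those 3 arrays.

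As labelled, 1 of 9033 probe sets differed between germ-free and conventional colon at a limma adjusted p under 0.05, or 0.0111%. It is a probe set of Urod, uroporphyrinogen decarboxylase, which acts in the making of heme. The name of this probe set ends in _i_at, a class of names returned to below. The signal read 15.5, 17.3 and 19.7 in germ-free colon and 80.1, 82.9 and 86.1 in conventional colon, so the groups lay far apart and every germ-free array was under the floor. The probe set fell by 1.97 ± 0.27 (SE, n = 3 arrays a group; errors of log2 differences below are of this kind) on the floored log2 scale in germ-free colon, at least 3.91-fold, with an adjusted p of 0.00442. Without germ-free array 1 the difference was the same and the adjusted p 0.0316. A floor at the 40th percentile ended the call, as did a fit of the 6 colon arrays alone and the replicate number as a fixed block (adjusted p 0.112). Without germ-free array 1, a floor at the 10th percentile ended it too (adjusted p 0.161). So did leaving out any conventional colon array as well, at adjusted p of 0.0951 to 0.211.

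The second Urod probe set was also lower on every germ-free array, by far less, and was not called. It gave 132, 126 and 138 in germ-free colon and 189, 144 and 223 in conventional colon, a log2 difference of -0.46 ± 0.24 with an adjusted p of 0.645. In the other regions the called Urod probe set split by status again, in both directions. It read 21.4, 26.6 and 24.1 in germ-free corpus against 51.9, 40.5 and 71.7 in conventional corpus, and 20.5, 11.9 and 27.2 in germ-free jejunum against 80.3, 74.4 and 145.8 in conventional jejunum. In rectum the order was turned, with 71.2, 92.9 and 106 in germ-free against 13.7, 19.6 and 17.4 in conventional mice. The status effect in colon minus that in rectum was -4.04 ± 0.38 for this Urod probe set, the 1 call of 9033 (0.0111%) in that contrast, where 141 (1.56%) had an unadjusted p under 0.05.

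**Figure D2:**
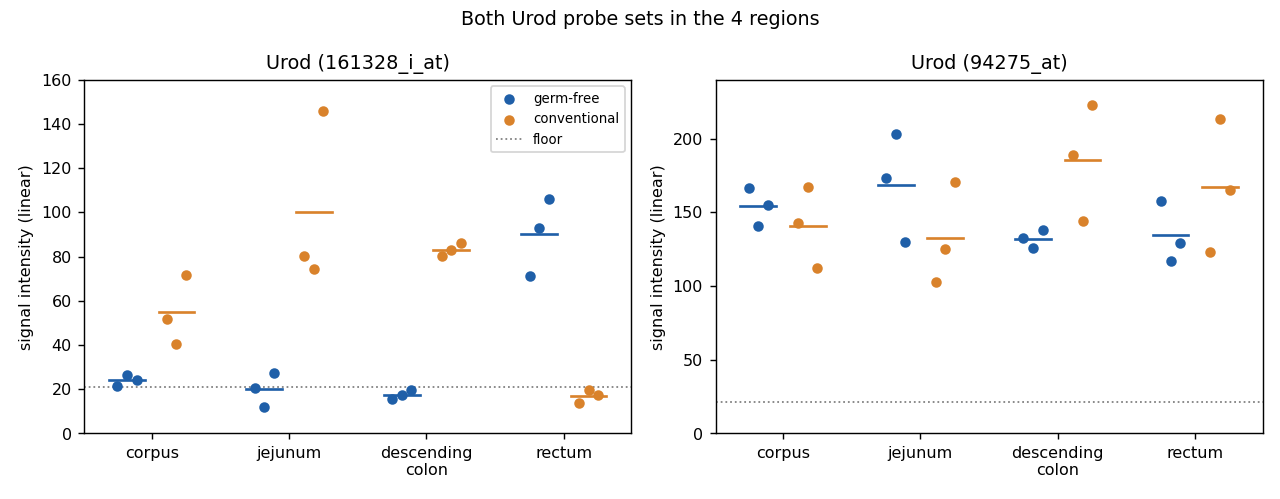
Signal intensity (linear axis) of the 2 Urod probe sets in the 4 regions, germ-free (blue, left of each pair) and conventional (orange), each point an array, bars means, the dotted line the floor of 21.2. The left panel separates the groups in every region, with rectum turned round, and in the right panel the groups overlap in every region but the descending colon.

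Probe sets at an unadjusted p under 0.05 were 476 higher (5.27%) and 257 lower (2.85%) in germ-free colon. The groups did not overlap for 737 higher (8.16%) and 531 lower (5.88%). Next to Urod in order of p came Csnk2a1, a casein kinase subunit, with 115, 121 and 123 in germ-free colon and 58.8, 41.1 and 48.5 in conventional colon. Its log2 difference was 1.29 ± 0.24, with an adjusted p of 0.113. Ndufb3, a subunit of respiratory complex I, measured 1294, 1002 and 703 on germ-free arrays and 397, 493 and 584 on conventional arrays. These 2 probe sets were higher on every germ-free array, and neither passed the test. Of 4 tested probe sets of Csnk2a1, 2 were higher without overlap and 2 overlapped, the brightest of them with 489, 273 and 249.5 in germ-free and 336, 289.8 and 197 in conventional colon.

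Sac3d1 gave 97, 134 and 219 on germ-free arrays and 21.4, 87.6 and 17 on conventional ones, and the actin cross-linker Actn1 98.3, 63.4 and 70 on germ-free and 167, 189 and 205 on conventional arrays. Adjusted p was 0.113 for both. The mitochondrial peptidase subunit Pmpcb had 269.5, 299.7 and 238 in germ-free and 131, 186 and 109 in conventional colon, and the RNA helicase Ddx6 397, 404 and 320.4 in germ-free and 55.1, 93.1 and 144 in conventional colon. The groups did not overlap on these 4 probe sets, and Actn1 alone was lower. Other probe sets of 3 of these genes overlapped. The brightest for Actn1 gave 1060.5, 1246 and 1025 in germ-free and 889.8, 1311 and 1185 in conventional colon. Ddx6 gave 353, 341 and 312 in germ-free and 348, 308 and 209.9 in conventional colon on another, and Sac3d1 165, 144 and 176 in germ-free and 159.5, 154 and 149 in conventional colon. Of the other 13 probe sets of lowest p, Rufy3, Dmd, Gpc3, Peg3, Ifi202b, Kcnma1, Nfatc3, Gramd3, Scg3, Atp7a and Ubap2l were higher in germ-free colon and H13 and Ruvbl1 lower, at adjusted p of 0.206 to 0.335.

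Antibody genes had the lowest median of the 43 lists measured. The immunoglobulin and plasma cell list held 27 tested probe sets with a median log2 difference of -0.84, against 0.07 over all probe sets tested. None was called. The groups did not overlap for 10 that were lower and 2 that were higher, or 37% and 7.41%, where all probe sets gave 5.88% and 8.16%. Without germ-free array 1 the median was -0.56, against 0.08 for all. Array medians set equal moved the all-probe median to -0.10 (-0.19 without germ-free array 1) and the list's to -1.03 (-0.88).

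Igha, the heavy chain of IgA, measured 573, 195 and 876 in germ-free colon and 2953, 3782 and 1267 in conventional colon. Every germ-free array lay below every conventional one, and conventional array 3 was nearest to them. The log2 difference was -2.39 ± 1.19, with an adjusted p of 0.634. This error pools the spread within all 8 groups, and Igha varied widely outside the colon too, at 6291, 2729 and 84.2 in conventional corpus. Its dimmer probe sets overlapped, with 30.4, 25.3 and 116 in germ-free and 97.6, 139 and 37.1 in conventional colon on 1. The third gave 4.2, 19.3 and 12.6 in germ-free and 88.4, 43.8 and 7.6 in conventional colon. Ighm, the heavy chain of IgM, measured 196, 126 and 389 in germ-free and 2479, 2373 and 777 in conventional colon, a difference of -2.97 ± 1.52. This was 1 of 10 tested Ighm probe sets, of which 4 were lower without overlap and 6 overlapped. A probe set that overlapped gave 156, 402 and 458 in germ-free and 1467, 514 and 446 in conventional colon, and another 8, 52 and 94.4 in germ-free and 8.6, 14.3 and 11.4 in conventional colon, where germ-free arrays 2 and 3 were the high ones. Jchain, which links antibody subunits, measured 144, 126 and 249 in germ-free and 799, 1160.3 and 259.6 in conventional colon. Of 5 tested Ighg3 probe sets, 4 were lower without overlap, and 1 of these gave 18.4, 34.5 and 59.1 in germ-free and 540.4, 389 and 81.1 in conventional colon, a difference of -2.87 ± 0.99. With germ-free array 1 left out, the differences were -2.55 ± 1.36 for Igha, -2.91 ± 1.74 for Ighm and -1.81 ± 1.17 for Jchain, at adjusted p of 0.476, 0.528 and 0.561. Probe sets of antibody genes can bind several family members, so these names are uncertain.

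Other plasma cell genes overlapped between groups. Xbp1, the transcription factor of secretory cells, had 895, 1338 and 974 in germ-free and 884, 1254 and 1033 in conventional colon. Tnfrsf17, a receptor on plasma cells, gave 52.3, 76.1 and 101 in germ-free and 70.8, 62.9 and 43.6 in conventional colon. Their ranges overlapped, as did those of Prdm1, Sdc1 and Pou2af1. An Ighd probe set was higher on all germ-free arrays, with 157, 220.2 and 312 in germ-free and 140.3, 109 and 145 in conventional colon. Pigr, the receptor that exports IgA, measured 8321, 8610.1 and 9475 in germ-free and 10771, 7034 and 10465 in conventional colon, with overlap.

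The B cell and follicle list had 23 tested probe sets and a median of -0.27, or -0.01 without germ-free array 1. Cd37, a tetraspanin of mature B cells, measured 21.6, 40.7 and 23.5 in germ-free and 155, 112 and 133 in conventional colon, a log2 difference of -2.27 ± 0.61 and an adjusted p of 0.421. Fcer2a, the low-affinity IgE receptor CD23, measured 9.3, 13.2 and 25.9 in germ-free and 55.9, 51.6 and 68.1 in conventional colon. Both had all germ-free arrays below all conventional ones. Other B cell markers overlapped: Ms4a1, which encodes CD20, gave 55.4, 123 and 166 in germ-free and 193, 206 and 132 in conventional colon on 1 probe set. Germ-free array 1 was the lowest array for that probe set and for Cd79a, at 79.8, 179 and 293 in germ-free and 409.8, 206 and 184 in conventional colon.

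**Figure D3:**
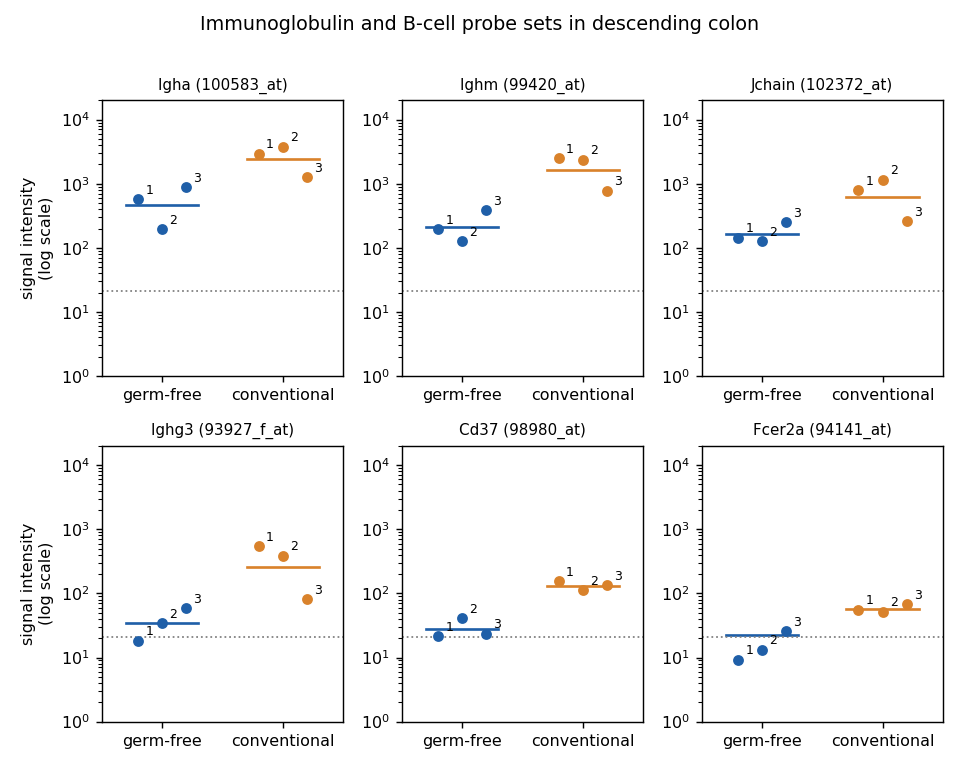
Signal intensity (log axis) of 4 antibody and 2 B cell probe sets on the 3 germ-free (left, blue) and 3 conventional (right, orange) descending colon arrays, points numbered by array, bars the mean of floored log2 values, the dotted line the floor of 21.2. All germ-free points lie below all conventional points in each panel, and for Igha, Ighm, Jchain and Ighg3 conventional array 3 is the closest.

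Other immune cell lists had medians on both sides. The T cell and cytotoxic list of 13 had 0.18, or 0.48 without germ-free array 1, and the mast cell list of 13 had 0.13, or 0.18 without that array. The macrophage and pan-leukocyte list (44 probe sets) had a median of -0.31, or -0.07 without germ-free array 1, and 6 probe sets were lower without overlap, 13.6% against 5.88% of all probe sets. Among them were Laptm5, with 169.6, 177 and 184 in germ-free and 424, 208 and 329 in conventional colon, and Cyba, a subunit of the phagocyte oxidase, with 567, 761 and 642 in germ-free and 1307, 884 and 857 in conventional colon. A second probe set of Laptm5 overlapped, with 273, 378 and 374 in germ-free and 382, 329 and 364 in conventional colon. The class II list had a median of -0.26, or -0.07 without germ-free array 1. The class II genes named here overlapped, with H2-Aa at 449, 748 and 866 in germ-free and 919, 568 and 1361 in conventional colon. Cd74, the invariant chain, gave 1154, 1846 and 2172 in germ-free and 2593, 1672 and 3042 in conventional colon. The mast cell proteases were low, with Mcpt1 between 14.8 and 101 on 1 probe set and 9.5 and 21.2 on another, which did not pass the filter, and Mcpt2 between 18.6 and 36.8 on the 6 arrays.

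Of 30 interferon-responsive probe sets, 6 were higher and 2 lower without overlap, 20% and 6.67% against 8.16% and 5.88% of all probe sets, and none was called as labelled. The median was 0.24, or 0.27 without germ-free array 1 and 0.11 with array medians equal. Ifi202b, an interferon-inducible DNA sensor, measured 148, 60.7 and 60.8 in germ-free and 13.2, 26 and 20 in conventional colon. The GTPase Irgm1 measured 122, 134 and 103 in germ-free and 57.7, 72.6 and 66.5 in conventional colon. Isg20, an exonuclease, was lower, with 63.8, 61.4 and 19.1 in germ-free and 122, 129 and 109.9 in conventional colon. Isg20 passed the test once germ-free array 1 and the 3 arrays with other region markers were left out, at an adjusted p of 0.0486.

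Antimicrobial genes of the epithelium were not lower in germ-free colon as a list. The 31 probe sets had a median of 0.26, or -0.00 without germ-free array 1, with 6 higher and 0 lower without overlap, 19.4% and 0% against 8.16% and 5.88% of all probe sets. Retnlb, the goblet cell protein RELM-beta, measured 10542, 10141 and 9307 in germ-free and 8444, 7975 and 6041 in conventional colon. Saa2, a serum amyloid A of the epithelium, measured 329, 573 and 736 in germ-free and 177, 225 and 329 in conventional colon on 1 probe set. Its other probe set measured 5271, 6614 and 6590.0 in germ-free and 3989, 3283 and 4118 in conventional colon. Germ-free arrays were the higher ones for each, and adjusted p was 0.967 for Retnlb and 0.72 and 0.917 for Saa2. The test pools the spread within all 8 groups, and these genes varied widely outside the colon. In germ-free corpus, Retnlb measured 7, 281 and 9364 and the brighter Saa2 probe set 26.3, 242 and 6593. The high values came from germ-free corpus 3, which carried markers of another region.

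The lectins of the Reg3 family turned on single arrays. Reg3b measured 3638, 417 and 303 in germ-free and 713, 1449 and 97.1 in conventional colon. Reg3g measured 275, 77.1 and 16.4 in germ-free and 73.2, 169 and 4.9 in conventional colon. For both, germ-free array 1 was the highest and the other arrays overlapped, and without it the log2 differences were -0.39 ± 1.33 and -0.66 ± 1.97. Their second probe sets were highest on germ-free array 1 too, with 824, 116 and 111 in germ-free and 84.4, 238 and 7.9 in conventional colon for Reg3b. For Reg3g they were 54.6, 15.8 and 29.1 in germ-free and 25, 29.6 and 1.7 in conventional colon. Saa3 was 62.7, 36 and 69.4 in germ-free and 40.9, 6.1 and 25.3 in conventional colon. Nfkbiz, an inducible regulator of NF-kB, was 206, 170.0 and 145 in germ-free and 222, 223 and 203 in conventional colon, and on a second probe set 15.7, 54 and 96 in germ-free and 21.6, 18.6 and 7.1 in conventional colon. The peptidoglycan receptor Pglyrp1 measured 478, 559 and 631 in germ-free and 1202, 1108 and 881 in conventional colon. This probe set was lower on all germ-free arrays, at an adjusted p of 0.602, and a second one overlapped, with 225, 272 and 340.5 in germ-free and 241, 398 and 275 in conventional colon.

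Among defensins, the Defa35 probe set measured 44.7, 39 and 46.2 in germ-free and 313, 592 and 275 in conventional colon. Defensins are made by Paneth cells of the small intestine, and jejunum held 9131 to 18208 of this signal on its arrays other than conventional 3. The adjusted p was 0.629 as labelled and 0.0259 without germ-free array 1 and the 3 arrays. Conventional array 2, the highest, was also the array with high Itln1. Summed over the 5 Paneth cell probe sets tested, the signal was 1290 to 2084 on germ-free arrays and 1418 to 9348 on conventional arrays, and the part of these cells in the result was not tested.

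Mucus genes stayed abundant without microbes. Tff3, the goblet cell trefoil factor, measured 6305, 8010.4 and 8003 in germ-free and 9925, 6291 and 10681 in conventional colon. Zg16, a lectin of mucus granules, measured 6559, 7143 and 8342 in germ-free and 9136, 6025 and 6999.8 in conventional colon. Their ranges overlapped. The transmembrane mucin Muc13 was lower on every germ-free array, with 2787, 2131 and 2655 against 4744, 3401 and 3601 in conventional colon. So was Creb3l1, a transcription factor bound to the endoplasmic reticulum, with 787, 750.5 and 755 in germ-free and 1734, 1121 and 1156 in conventional colon. Neither was called, and the list of 27 had a median of -0.02, or -0.05 without germ-free array 1. Without overlap, 3 of its probe sets were higher and 5 lower, 11.1% and 18.5% against 8.16% and 5.88% of all probe sets. Fut2, which fucosylates surface glycans, was near the floor, at 29.1, 16.5 and 25.5 in germ-free and 60.6, 85.2 and 10 in conventional colon.

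Secretory pathway genes sat slightly low. The list of endoplasmic reticulum chaperones and translocation had 58 tested probe sets, a median of -0.14 (-0.18 without germ-free array 1), and 8 lower and 1 higher without overlap, 13.8% and 1.72% against 5.88% and 8.16% of all probe sets. Creld2, a chaperone-like protein, measured 183, 197 and 157 in germ-free and 302, 347 and 324 in conventional colon, a log2 difference of -0.86 ± 0.23. The translocon subunit Sec61a1 gave 1213, 1138 and 1197 in germ-free and 1644, 1539.9 and 2254 in conventional colon, and Sec61b 784, 756 and 729 in germ-free and 1055, 1038 and 1224 in conventional colon. All germ-free arrays were the lower ones on these 3 probe sets, and a second Sec61a1 probe set overlapped, with 892, 855 and 632 in germ-free and 748, 1086 and 827 in conventional colon. The 3 had adjusted p of 0.386 for Creld2 and 0.602 for both Sec61 genes.

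Small intestinal enterocyte genes had 10 of 35 probe sets higher and 0 lower without overlap, 28.6% and 0% against 8.16% and 5.88% of all probe sets. The median was 0.23, or 0.25 without germ-free array 1, and 0.05 with array medians equal. Germ-free arrays 2 and 3 were above all conventional arrays for Fabp2, Enpep and Slc51a too, though by less than array 1. The fructose transporter Slc2a5 measured 83.2, 96.1 and 136 in germ-free and 51, 11.8 and 25.8 in conventional colon, a log2 difference of 1.76 ± 0.56. The sodium-glucose transporter Slc5a1 measured 629.8, 533 and 388 in germ-free and 221, 319.6 and 301 in conventional colon, and the amino acid transporter subunit Slc7a9 322, 381 and 426 in germ-free and 85.7, 119 and 244 in conventional colon. None was called as labelled. Without germ-free array 1 and the 3 arrays, Slc2a5 rose by 1.91 ± 0.42 (adjusted p 0.0486) and Enpep by 1.84 ± 0.32 (adjusted p 0.0193), 2 of the list's 35. With array medians equalised and only germ-free array 1 left out, these adjusted p-values were 0.31 and 0.686.

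Most colonocyte and water transport genes named here overlapped between groups. Car4, a membrane carbonic anhydrase, measured 2227, 3353 and 3901 in germ-free and 3444, 2912 and 3817 in conventional colon, and 338, 504 and 516 against 392, 292 and 369 on its second probe set. Aqp4, a water channel also made by gastric parietal cells, measured 1463, 2187 and 1875 in germ-free and 676, 1974 and 434 in conventional colon, where conventional array 2 lay among the germ-free ones. The other Aqp4 probe set gave 514, 910.1 and 734 in germ-free and 233, 733 and 107 in conventional colon, again with conventional array 2 among the germ-free ones. Sgk1, a kinase that raises sodium channel activity, was lower, with 1102, 710.1 and 412 in germ-free and 1124, 1206 and 2117 in conventional colon and an adjusted p of 0.602. Angptl4, an inhibitor of lipoprotein lipase, overlapped on its 3 tested probe sets, with 82.6, 109 and 122 in germ-free and 45.1, 72.9 and 95.3 in conventional colon on the first. The second gave 112, 51.4 and 60.1 in germ-free and 45.8, 27 and 117 in conventional colon, and the third 112, 102 and 189.5 in germ-free and 125, 78.6 and 168 in conventional colon. A probe set that did not pass the filter gave 1.1, 27.6 and 45.9 in germ-free and 5.7, 10.2 and 3 in conventional colon.

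As labelled, hormone genes had the highest list median. Without germ-free array 1 the pancreas (0.93), T cell (0.48) and skeletal muscle (0.47) lists were among those above them. The enteroendocrine list held 19 probe sets with a median of 0.47, and 7 were higher and 0 lower without overlap, or 36.8% and 0% against 8.16% and 5.88% of all probe sets. With that array left out the median was 0.24, and -0.00 with array medians equal as well. Cck, which encodes cholecystokinin, measured 749, 116 and 77.1 in germ-free and 6.9, 9.2 and 3.9 in conventional colon. All conventional arrays lay under the floor, so Cck was at least 8.89-fold higher in germ-free colon, or 4.46-fold without germ-free array 1, with adjusted p of 0.574 and 0.408. Gcg, which encodes glucagon-like peptides, measured 457, 144 and 129.5 in germ-free and 94.1, 88.6 and 50.2 in conventional colon. Chga gave 148, 91.7 and 130.0 in germ-free and 69.4, 83.4 and 39.9 in conventional colon, and the carboxypeptidase Cpe 1021, 729 and 669.7 in germ-free and 243, 552 and 447 in conventional colon. Germ-free array 1 was the highest of 6 on each of these 4 probe sets. A second, brighter Chga probe set overlapped, with 253, 193 and 205 in germ-free and 283, 214 and 242 in conventional colon. Scg3, a granin, had its highest value on germ-free array 3, with 55, 87.1 and 100.5 in germ-free and 30.4, 28.7 and 14 in conventional colon.

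Fat oxidation genes had 5 of 44 probe sets higher and 0 lower without overlap, or 11.4% and 0% against 8.16% and 5.88% of all probe sets. The median was 0.24, or 0.11 without germ-free array 1 and 0.09 with array medians equal. With both changes it was -0.12, against -0.19 over all probe sets. Ppara, the fatty acid receptor that drives the pathway, measured 368, 236 and 191 in germ-free and 82.2, 116 and 152 in conventional colon. The dehydrogenase Acadl measured 217, 237 and 235 in germ-free and 101, 180.2 and 132 in conventional colon, and Pex11a, which acts in peroxisome division, 292, 222 and 210.0 in germ-free and 159.9, 159 and 149.7 in conventional colon. The lowest adjusted p of the 3 was 0.386, for Pex11a.

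In oxidative phosphorylation, 13 of 72 probe sets were higher and 2 lower without overlap, 18.1% and 2.78% against 8.16% and 5.88% of all probe sets, with a median of 0.16, or 0.13 without germ-free array 1. The first was -0.01 with array medians equal. Differences were small, as in Uqcrh of complex III, with 2475, 2363 and 2456 in germ-free and 2039.5, 1845 and 2099 in conventional colon. Ndufb9 of complex I gave 1473, 1549.5 and 1436 in germ-free and 1052, 1123 and 1259.5 in conventional colon, and Ndufa7 of the same complex was lower, with 1911, 1921 and 1906 against 2949, 2094 and 2359 in conventional colon. Of the xenobiotic list, 9 of 74 were higher and 6 lower without overlap, 12.2% and 8.11% against 8.16% and 5.88% of all probe sets, with a median of 0.12, or 0.08 without germ-free array 1. Aldh1a7, an aldehyde dehydrogenase, measured 119.5, 130.1 and 176 in germ-free and 45.7, 77.1 and 34 in conventional colon, and Gstt2, a glutathione transferase, 228, 209 and 187 in germ-free and 298, 339 and 344 in conventional colon. Cyp4b1 and Ugt2b5 were highest on germ-free array 1, with 1489, 319.8 and 283 in germ-free and 194, 193 and 183 in conventional colon for Cyp4b1. Ugt2b5 gave 669, 159.8 and 139 in germ-free and 49.9, 96.9 and 29.4 in conventional colon.

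Junction genes included 3 of 28 probe sets that were lower and 1 that was higher without overlap, 10.7% and 3.57% against 5.88% and 8.16% of all probe sets, with a median of 0.03, or -0.07 without germ-free array 1. Cldn4, a sealing claudin, measured 127, 131 and 147 in germ-free and 531, 344 and 172 in conventional colon. Jup, plakoglobin, measured 509, 444 and 374 in germ-free and 934, 693 and 622 in conventional colon. Cldn2, a pore-forming claudin, depended on germ-free array 1, with 290.3, 30.7 and 16.2 in germ-free and 284, 213 and 199 in conventional colon. Without that array its log2 difference was -3.17 ± 0.65. Adjusted p was 0.602 as labelled and 0.16 without it. With the 3 arrays left out as well it was 0.0482, a call.

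Of 24 clock probe sets, 1 was higher and 1 lower without overlap, 4.17% each against 8.16% and 5.88% of all probe sets. Arntl, also called Bmal1, measured 183, 229 and 181 in germ-free and 352, 312 and 166 in conventional colon, and Per1 41, 82.6 and 94.7 in germ-free and 47.6, 45.7 and 75.5 in conventional colon, both with overlap. Of immediate early and stress genes, Btg2 was lower, with 792, 557 and 845 in germ-free and 1648, 1147 and 957 in conventional colon. For cell cycle genes the median of 82 probe sets was 0.04, or 0.05 without germ-free array 1, with 2 higher and 5 lower without overlap, 2.44% and 6.1% against 8.16% and 5.88% of all probe sets. Pold2, a DNA polymerase subunit, gave 139, 96.1 and 97 in germ-free and 273, 242 and 235 in conventional colon, and the histone variant H2az1 982, 1030.4 and 1016 in germ-free and 536, 814 and 523 in conventional colon. None of these was called. Dbp and Guca2a were on the array but did not pass the filter on low values. Ang4, Slc5a8, Saa1, Nox1, Muc2, Slc26a3, Scnn1b, Pyy and Insl5 were not analysed here, since no probe set is named for them.

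**Figure D4:**
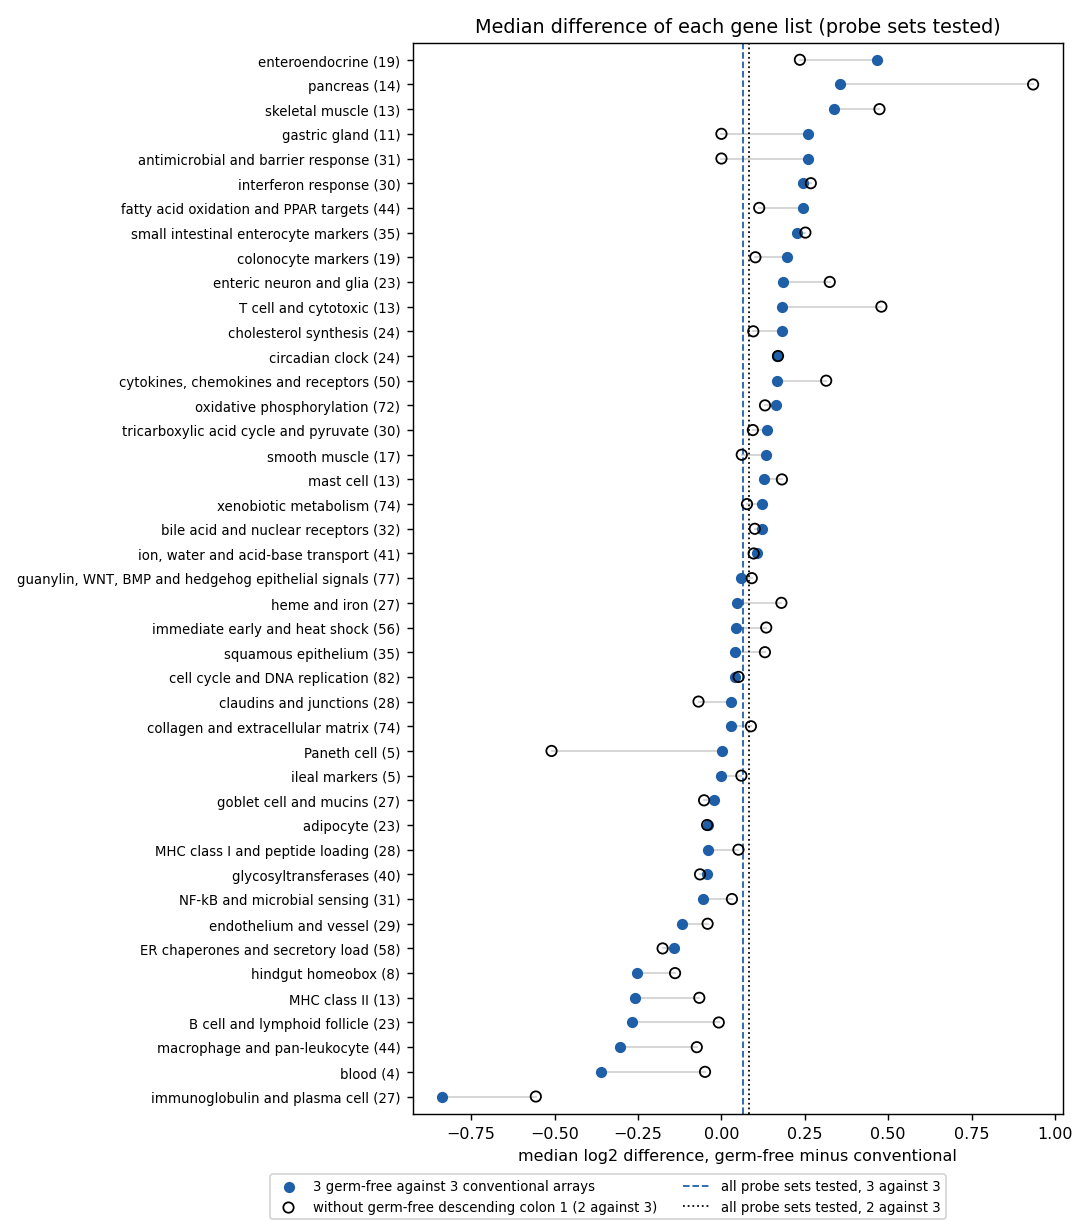
Median log2 difference (germ-free minus conventional) of each gene list, with the number of probe sets tested in brackets, for 3 against 3 arrays (filled) and without germ-free array 1 (open), the vertical lines the medians over all probe sets tested (0.07 and 0.08). Immunoglobulin and plasma cell genes are lowest at -0.84, and 1 of the 43 lists, heme and iron, holds the called probe set.

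Without germ-free array 1, Urod was again the 1 probe set called (0.0111%). Unadjusted p under 0.05 was met by 828 higher (9.17%) and 253 lower (2.8%) probe sets. The groups did not overlap, 2 arrays against 3, for 2126 higher (23.5%) and 1011 lower (11.2%). Leaving out the 3 arrays with other region markers as well raised the calls to 58, or 0.642%, 43 of them higher (0.476%) and 15 lower (0.166%) in germ-free colon. With array medians equalised in the same fit the calls were 5 higher and 11 lower, or 0.056% and 0.123%. As labelled, leaving out the 3 arrays gave 3 higher (0.0332%) and 5 lower (0.0554%) calls, and equalised medians in that fit 1 higher (0.0112%) and 6 lower (0.0672%). Equalised medians alone left 1 call, a lower one, with and without germ-free array 1 (0.0112% each). Quantile normalization gave 1 higher and 1 lower call (0.0113% each) as labelled, and 2 lower (0.0225%) without germ-free array 1.

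Signal level ran with these calls. Of the 43 higher calls, 40 had a mean signal under 100, a class that makes up 34.6% of the probe sets tested. Names ending in _r_at, _f_at or _i_at, 16% of those tested, were held by 28 of the 43. Ubr4, an example, gave 16.1, 105 and 117 in germ-free and 7, 15.3 and 18.2 in conventional colon, and Mogat2 13.1, 107 and 129.6 in germ-free and 10, 18 and 8 in conventional colon. Germ-free arrays 2 and 3 were the high ones on both, and they are the arrays with the high medians and few probe sets at the floor. Brighter Ubr4 signal from another probe set leaned the other way, with 1234, 892 and 902 in germ-free and 1665, 1189 and 1451 in conventional colon, and a second Mogat2 probe set overlapped, with 57.9, 68.7 and 108 in germ-free and 91.6, 70.1 and 47.5 in conventional colon. Without germ-free array 1, 38% of dim probe sets (under 100) were higher and 5.13% lower without overlap, whereas of bright ones (400 and over) 8.64% were higher and 20.5% lower. The part of the array scale in these calls was not tested. The lower calls included Cldn2, Defa35, Isg20, Actn1 and Ruvbl1, and Itga7, an integrin of muscle, with 161, 21.1 and 35.2 in germ-free and 111, 155 and 178 in conventional colon. The matrix gene Tnxb gave 40.2, 24 and 29 in germ-free and 133, 79.1 and 108 in conventional colon. Second probe sets of both overlapped, with 176, 172 and 169.6 in germ-free and 141, 183 and 178 in conventional colon for Itga7 and 39, 50.5 and 43.6 in germ-free and 107, 43.8 and 60.8 in conventional colon for Tnxb.

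**Figure D5:**
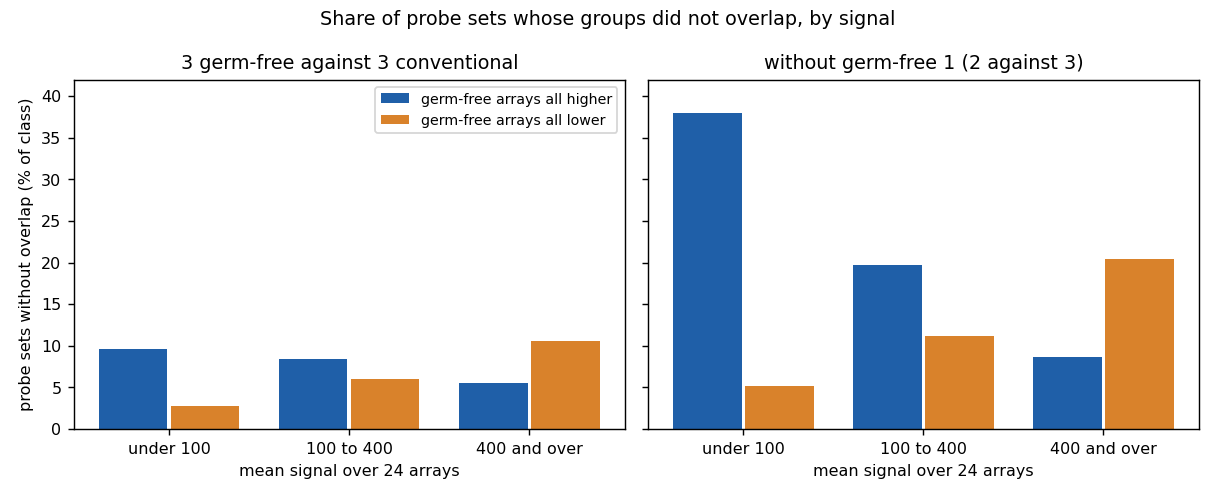
Share of tested probe sets (percent of each signal class) whose germ-free arrays all lay above (blue) or all below (orange) the conventional arrays, by mean signal over 24 arrays, for 3 against 3 arrays (left) and 2 against 3 (right). Higher probe sets are most frequent under 100, at 38% in the right panel, and lower ones at 400 and over, at 20.5%.

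The status effect on Igha was also measured in rectum and jejunum. Igha measured 468, 188 and 2826 in germ-free rectum against 8083, 3182 and 2029 in conventional rectum, where germ-free array 3 lay among the conventional ones. In jejunum it measured 2141, 2306 and 4020 in germ-free against 7217, 10219 and 5633 in conventional mice, with no overlap. The status effect for Igha in colon minus that in rectum was 0.18 ± 1.68, and colon minus jejunum -0.93 ± 1.68, at adjusted p of 1 and 0.925. Conventional rectum 1 and conventional jejunum 3 are among the arrays with other region markers.

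Against jejunum, 1 of 9033 probe sets (0.0111%) had a different status effect, and 667 (7.38%) had an unadjusted p under 0.05. It was Slc5a11, a sodium-inositol transporter, which was near the floor in colon, at 10.8, 18.6 and 24.6 in germ-free and 22.4, 16.7 and 21.5 in conventional colon. In jejunum it had 202, 97.3 and 185 in germ-free against 28.4, 21.7 and 19.4 in conventional mice. Colon minus jejunum was -2.67 ± 0.41, with an adjusted p of 0.0254. Leaving out germ-free colon 1, the 3 arrays or all 4 ended that call, at adjusted p of 0.0642, 0.0521 and 0.081.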

How the data were processed

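The deposited values are signal intensities on a linear scale, 1 per probe set and array, from Affymetrix mouse arrays. The authors had scaled them, since the mean of the middle 96% was 200.1 to 200.14 on every array. Their software and algorithm are not given in the sources used here. Intensities under the 25th percentile, 21.2, were set to it, and log2 values of the deposited intensities were taken. The 9033 of 12422 non-control probe sets over 51.5, the 40th percentile, on at least 3 arrays were kept. A model with 8 group means was fitted with limma 3.58.1 in R 4.3.3 (empirical Bayes with a trend, 16 residual degrees of freedom, 15 without germ-free colon 1). P-values were adjusted by Benjamini-Hochberg over all 9033, at a threshold of 0.05. Gene names came from the platform annotation, in which 10855 probe sets have 1 gene, 396 several and 1237 none. The fit was tested on simulated data, with normal noise set to the spread within the colon groups. Those data lack the spread that the 3 arrays with other region markers add to the real fit, so they cannot show its effect. Members and lists were chosen with earlier results of these data known. Named were called probe sets whose groups did not overlap, filled up to 20 by lowest p, up to 4 of lowest p from each list, 6 of lowest p for each contrast between regions, and a fixed set of genes known in this tissue. Further probe sets of named genes, Ighm, Xbp1, Tnfrsf17, Ms4a1, Cd79a, Muc13, Slc5a1, Slc7a9, Chga, Uqcrh, Ndufa7, Itln1, Cd52 and Acta1 fall outside this rule and were picked after their values were seen, and the rule was applied to the fit of 20 arrays after seeing the data. Another scaling, floor, filter, choice of arrays and replicate block were tried. The number of arrays limits the precision.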

Additional observations from a re-analysis of the deposited data

Results flagged for a closer look

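A difference of the status effect between regions was found by an interaction test for 2 probe sets. For Urod, the effect in descending colon minus that in rectum was -4.04 ± 0.38 on the log2 scale. Germ-free arrays were lower in colon and higher in rectum. The second Urod probe set was lower in germ-free colon by far less, and its groups overlapped in rectum. For Slc5a11, the effect in colon minus that in jejunum was -2.67 ± 0.41. It was higher on all germ-free jejunum arrays and near the floor in colon. Leaving out germ-free colon 1, the 3 arrays with other region markers or all 4 ended the Slc5a11 call.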

How the results depend on the processing

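As labelled, the count of called probe sets was 1. It was 2 with quantile normalization, 5 with no filter on dim probe sets, 8 without the 3 arrays whose markers opposed their labels, and 7 when medians were also equalised, an alternative chosen after seeing the data. It was 0 with a floor at the 40th percentile, a filter at the 60th, colon arrays alone or the replicate number as a block (796, 457, 795 and 748 at an unadjusted p under 0.05). Leaving out 1 array gave 1 to 3, with 2 without germ-free 3 and 3 without conventional 2. Without germ-free colon 1 the count was 1. It was 2 with quantile normalization, 34 with the 40th percentile floor, 52 with no filter, 28 with colon and rectum alone, 58 without the 3 arrays and 16 with medians also equalised. It was 0 with a floor at the 10th percentile, the 60th percentile filter, colon alone or the replicate block (980, 500, 1483 and 970 unadjusted). Leaving out a further array gave 0 to 1, and a lone germ-free array was assumed to vary like the other groups. Colon against jejunum gave 0 without germ-free colon 1, without the 3 arrays and without all 4 (766, 828 and 997 unadjusted), and colon against rectum kept its count of 1. Why these counts move was not tested. Replicate numbers did not pair germ-free with conventional colon arrays, since deviations of same-numbered ones correlated at -0.07, 0.08 and 0.02. Across regions within a status, arrays of the same number had a consensus correlation of 0.12 as labelled. Germ-free array 3 had the highest median signal of each germ-free region, at 103.5 in colon, 102.5 in corpus, 88.4 in jejunum and 89.9 in rectum. No called value changed direction, and 14 of 61 named probe sets as labelled and 17 of 78 without germ-free colon 1 changed sign while not called.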

Other observations

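In all 4 regions, the germ-free and conventional arrays did not overlap for 7 of 9033 probe sets, or 0.0775%. This count was made after the values were seen. It includes Ndufb9, Ndufb3 and Uqcrh of the respiratory chain, Sac3d1 and 1 probe set with no gene name, which were higher in germ-free mice in each region. Saa2 was lower in germ-free jejunum and higher elsewhere, and Urod was higher in germ-free rectum and lower elsewhere. For Saa2, germ-free corpus arrays read 26.3, 242 and 6593, against 16.6 to 23.1 in conventional corpus, near the floor of 21.2. The value of 6593 came from germ-free corpus 3. Between colon and rectum, 177 of the 9033 probe sets were apart in the same direction in both and 13 in opposite directions. In colon alone, 8.16% of all probe sets were higher and 5.88% lower without overlap, and the share in rectum alone was not counted. Conventional rectum 1, which carried markers of another region, is part of these counts. Germ-free corpus 3 and conventional jejunum 3, which did too, are part of the count over 4 regions.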
